A study of Mus musculus with 3 samples.

Results

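The mitochondrial carriers of solute carrier family 25 were examined in normal mouse liver. Members were all protein-coding genes whose symbol begins with Slc25a, together with the uncoupling protein gene Ucp2, and 1 further family gene is not analysed here. The annotation holds 47 such genes, and 38 of them had at least 1 value in the deposited tables, out of 11416 protein-coding genes with a value. RNA sequencing was done on 3 libraries of a single group, labelled as liver of healthy, wild-type (WT), male C57BL/6 mice, an inbred laboratory strain, with no treatment or age given. The study as a whole concerned driver genes of hepatocellular carcinoma, and its tumours were not analysed here. No label states that each library is its own mouse, and the spread between libraries may thus be partly technical.

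The libraries held liver RNA by their markers but went against their label on sex. All 6 hepatocyte markers had a mean above 10 FPKM, with summed levels of 42205 to 51740 FPKM, and none of 6 striated muscle markers was listed. Lymphocyte markers summed to 3.42 to 6.19 FPKM, 1 of 4 kidney tubule markers was listed, at 0.43 FPKM in replicate 2, and of 4 adipocyte markers only Cidea was listed, at 22.7, 2.73 and 10.9 FPKM. Xist, the RNA of the inactive X chromosome of females, was at 65.7, 53.9 and 46.4 FPKM in replicates 1, 2 and 3, while no library held an event of Ddx3y, Uty, Eif2s3y or Kdm5d, genes of the Y chromosome. The libraries are therefore called by their replicate numbers and not by sex. The tables hold no read counts. Depth is therefore unknown, and values carry no counting interval.

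Carriers of this family sit mostly in the inner mitochondrial membrane and exchange metabolites, nucleotides, cofactors and phosphate between the cytosol and the matrix. In liver they link the mitochondrial and cytosolic steps of urea synthesis, glucose synthesis, fat synthesis and fatty acid oxidation. Each protein is built from repeats of a paired membrane helix, and close relatives often carry the same substance in different tissues.

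Levels are in FPKM, a measure of sequenced fragments that corrects for library size and for the length of the transcript, so genes can be set side by side. The tables give a value for each structural event of a transcript, such as a first exon or a retained intron, and list no event at 0. A gene's level in a library was taken as the largest of 3 quantities: its first exons summed, its last exons summed, or the highest of its internal events. Of the 38 carriers with a value, 33 were listed in all 3 libraries and 5 in fewer. The mean was 1 FPKM or more in 31 of the 38 (81.6%), near the 76.6% of all protein-coding genes with a value. It was 10 FPKM or more in 18 (47.4%), against 26.5% of all protein-coding genes, and 100 FPKM or more in 5 (13.2%), against 3.77%. The median of mean log2(FPKM + 1) was 3.34 over the 38 carriers and 2.23 over all protein-coding genes with a value. Summed over the carriers the level was 1435, 1322 and 1318 FPKM, and the 5 highest genes supplied 64.3, 64.0 and 62.6% of it.

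No value was listed for Slc25a2, Slc25a18, Slc25a31, Slc25a34, Slc25a37, Slc25a41, Slc25a43, Slc25a53 and Slc25a54. Genes with 1 annotated transcript were often missing from the tables, since 17.7% of them had a value against 60.8% of genes with several. Among the carriers 2 of 6 genes with 1 annotated transcript had a value, and 36 of 41 with several. Absence from the tables therefore does not show that a gene was silent.

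**Figure D1:**
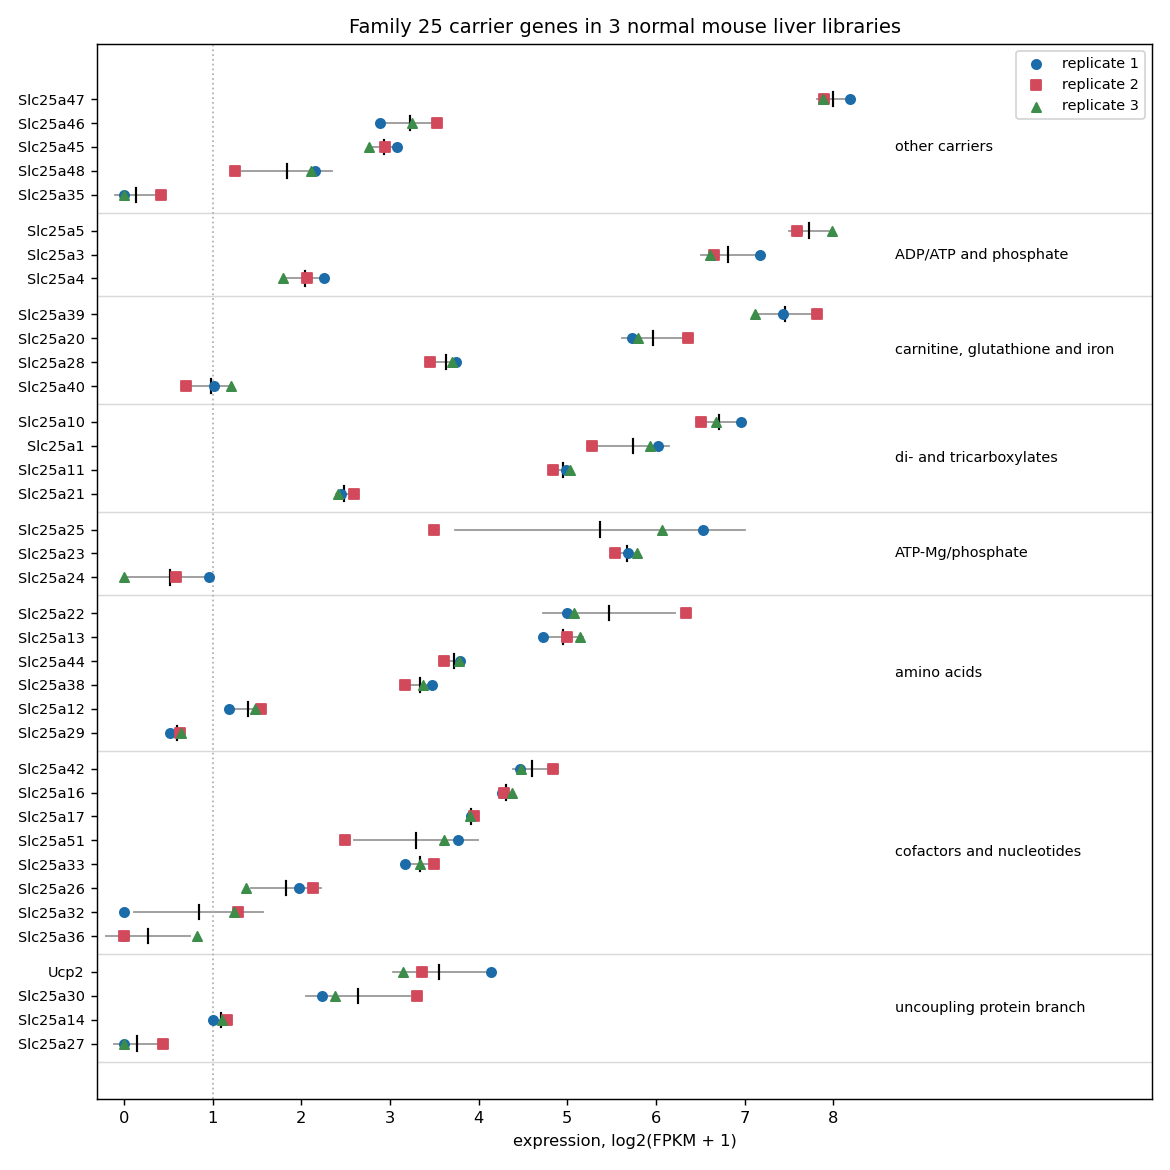
Level of carrier genes with a value, as log2(FPKM + 1) on the horizontal axis, by role. Points are the 3 libraries, black ticks their mean and grey lines 1 SD on each side, and the dotted line marks 1 FPKM. Slc25a47, Slc25a5, Slc25a39, Slc25a3 and Slc25a10 lie at the right, and Slc25a25 has the widest spread.

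The ADP/ATP and phosphate carriers supply oxidative phosphorylation with its substrates. Slc25a5, an ADP/ATP exchanger on chromosome X (36795651 to 36798807, plus strand, GRCm38), was at 192, 192 and 253 FPKM, a mean of 213 ± 35.1 (SD, n = 3). Replicate 3 was the highest, and the other two libraries nearly coincided. Slc25a4, the ADP/ATP exchanger best known from heart and skeletal muscle, was at 3.76, 3.20 and 2.46 FPKM. Slc25a5 was above Slc25a4 in every library, by 5.69 ± 0.45 in log2(FPKM + 1). Reads of near-identical copies can be divided among Slc25a5, its pseudogenes and Slc25a4, and how the authors counted them is not given.

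Slc25a3, the phosphate carrier (chromosome 10, 91116574 to 91124059, minus strand), was at 143, 100 and 97.0 FPKM, with replicate 1 above the other two. Its transcripts hold either of a pair of neighbouring coding exons that are known to be used in different tissues, one of them in heart and skeletal muscle. Their sequences are shown because the forms with only 1 of them differed widely in level. Capitals mark bases that differ or have no partner in an alignment of the exons, read 5′ to 3′ on the minus strand from annotated GRCm38 transcripts.
Slc25a3 upstream exon, chr10:91122207-91122331: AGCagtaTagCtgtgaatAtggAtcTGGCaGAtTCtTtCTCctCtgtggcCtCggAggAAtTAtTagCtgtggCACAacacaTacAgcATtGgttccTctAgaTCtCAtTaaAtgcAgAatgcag
Slc25a3 downstream exon, chr10:91121922-91122043: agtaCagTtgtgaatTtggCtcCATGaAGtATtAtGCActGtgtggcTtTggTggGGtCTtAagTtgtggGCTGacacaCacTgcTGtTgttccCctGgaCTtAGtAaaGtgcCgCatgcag
The upstream exon has 125 bases and the downstream one 122. Of 122 aligned positions 77 were identical (63.1%). The downstream exon was at 129, 86.9 and 89.1 FPKM, and the upstream exon at 0.0025, 0.0022 and 0.0026 FPKM, each as an exon of its own. An unspliced form that spans both (91121922 to 91123706) was at 13.9, 13.0 and 7.86 FPKM, or 9.7, 13.0 and 8.1% of the 3 forms. Of the 29 carriers whose first exons could be measured, Slc25a3 was the only one with more than 1 first exon at a share of at least 10% in every library, which 8.46% of all protein-coding genes measured had. The shorter of its main first exons (91123916 to 91124059) took 85.9, 86.6 and 86.5% of the first-exon FPKM. A longer one that starts at the same base and runs on to 91123558 took 13.9, 13.2 and 13.4%, so the shares hardly moved while the gene's level did.

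The ATP-Mg/phosphate carriers adjust the adenine nucleotide content of the matrix and are regulated by calcium. Slc25a23 (chromosome 17, 57043711 to 57059863) was steady at 50.4, 45.4 and 54.4 FPKM. Slc25a25 (chromosome 2, 32414487 to 32451445, minus strand) was at 91.6, 10.3 and 66.4 FPKM, so its highest library was 8.87 times its lowest. Replicate 2 was far below the other two. Its coefficient of variation (SD over mean) of 74.1% was matched or passed by 0.859% of the 3026 protein-coding genes whose mean was 10 FPKM or more. Slc25a24 was at 0.95 and 0.51 FPKM in replicates 1 and 2 and not listed in replicate 3. Slc25a25 overlaps Naif1 on the opposite strand, as Slc25a23 does Crb3, Slc25a11 does Rnf167 and Ucp2 does Dnajb13. Whether counting used strand is not stated, so these values may hold reads of the partner gene.

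The first exons of Slc25a25 divided its level in a way that differed between libraries. The proximal first exon (32423794 to 32424005) was at 64.6, 4.39 and 45.9 FPKM, or 80.4, 45.3 and 98.8% of the first-exon FPKM in replicates 1, 2 and 3. A distal first exon (32451067 to 32451422) was at 15.8, 5.30 and 0.47 FPKM, or 19.6, 54.7 and 1.0%. The proximal exon led in replicates 1 and 3 and the distal exon in replicate 2, and both hold coding sequence. The 250 bases before the RefSeq start site nearest to each exon (GRCm38.p6, minus strand) are shown because each stands before a different first exon. Capitals mark matches on either strand to 3 of the 4 motifs searched: the CCAAT box, the GC box with letters GGGCGG, and the cAMP response element with letters TGACGTCA.
Slc25a25 proximal promoter, chr2:32424067-32424316: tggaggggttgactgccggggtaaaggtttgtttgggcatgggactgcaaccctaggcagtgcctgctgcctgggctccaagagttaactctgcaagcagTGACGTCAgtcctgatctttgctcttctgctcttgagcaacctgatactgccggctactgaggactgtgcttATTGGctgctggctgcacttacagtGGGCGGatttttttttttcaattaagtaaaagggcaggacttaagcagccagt
Slc25a25 distal promoter, chr2:32451471-32451720: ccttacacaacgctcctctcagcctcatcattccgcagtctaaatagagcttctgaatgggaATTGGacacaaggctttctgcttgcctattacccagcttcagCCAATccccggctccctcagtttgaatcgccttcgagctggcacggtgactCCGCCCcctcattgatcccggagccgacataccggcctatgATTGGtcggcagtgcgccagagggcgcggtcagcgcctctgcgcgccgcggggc
TGACGTCA was found before the proximal exon and not before the distal one, and the matches in these windows did not overlap each other. Over 32851 RefSeq promoter windows of 300 bases (250 before the start and 50 after it), searched on both strands, TGACGTCA occurred in 1.79%, the CCAAT box in 37.4%, the GC box in 35.7% and the TATA box (letters TATAAA) in 13.6%. RefSeq windows matched 36 carrier genes with 45 promoters. TGACGTCA occurred in 2 of the 45, in Slc25a25 and Slc25a36, the CCAAT box in 22, the GC box in 37 and the TATA box in 2. A match is a run of letters and was not tested as a binding site.

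Carriers of di- and tricarboxylates connect the citric acid cycle with the cytosol. Slc25a10, the dicarboxylate carrier that exchanges malate or succinate for phosphate, was at 124, 90.1 and 102 FPKM (mean 105 ± 17.0, SD, n = 3). Slc25a1 exports citrate, the carbon source of fat synthesis, and was at 63.8, 38.0 and 60.2 FPKM, with replicate 2 the lowest. Acly, the cytosolic enzyme that splits the exported citrate, was also lowest there, at 46.5, 19.7 and 42.2 FPKM, and so was Acaca, which carries out the next step, at 7.66, 1.34 and 3.29 FPKM. Slc25a11, the oxoglutarate/malate carrier of the malate-aspartate shuttle, was at 30.8, 27.5 and 31.8 FPKM, so its libraries were close together. Slc25a21, the oxodicarboxylate carrier, was at 4.33 to 5.04 FPKM. The value of Slc25a1 is that of its last exons, and its internal events were close, at 62.8, 37.6 and 59.7 FPKM. The first exons listed for it summed to at most 0.89 FPKM in any library.

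Amino acid carriers serve urea synthesis and the malate-aspartate shuttle. Slc25a13, the aspartate/glutamate carrier of liver known as citrin, was at 25.4, 31.1 and 34.5 FPKM, and its relative Slc25a12, best known from brain and muscle, at 1.28, 1.93 and 1.78 FPKM. The difference of 3.55 ± 0.11 in log2(FPKM + 1) was much larger than its spread over the libraries. With 0.1 added instead of 1 the difference was 4.12, so its size depends on this choice. Slc25a44, a carrier of branched-chain amino acids, was at 12.9, 11.2 and 12.8 FPKM. Slc25a38, the glycine carrier needed for haem synthesis, was at 10.1, 8.0 and 9.39 FPKM. Slc25a29, a carrier of basic amino acids, stayed between 0.43 and 0.57 FPKM in every library.

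Slc25a22, a glutamate carrier (chromosome 7, 141429744 to 141437892, minus strand), was at 31.0, 79.7 and 32.8 FPKM, with replicate 2 far above the other two. Its coefficient of variation of 57.7% was reached by 2.02% of genes whose mean was 10 FPKM or more. The most upstream first exon (141437569 to 141437892) took 83.4, 61.5 and 6.8% of its first-exon FPKM. In replicate 3 a first exon at 141434531 to 141435397, listed in no other library, took 86.0%. Its start was not particular to replicate 3. A shorter first exon with the same start (141435288 to 141435397) took 10.2, 8.3 and 4.1%. A first exon of an annotated retained-intron transcript (141431739 to 141432059) passed a 10% share in replicate 2 alone, with 5.5, 26.4 and 2.0%. The leading first exon was thus the same in replicates 1 and 2 and another in replicate 3.

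Carnitine, glutathione and iron carriers included 3 genes with a mean above 10 FPKM. Slc25a20, which brings acylcarnitines into the matrix for fatty acid oxidation, was at 52.2, 81.4 and 54.8 FPKM. Cpt2, the matrix enzyme that receives the acylcarnitines, was at 51.5, 75.6 and 55.8 FPKM, with replicate 2 the highest as for Slc25a20. Cpt1a, which makes acylcarnitines at the outer membrane, was at 52.5, 81.1 and 83.7 FPKM, with replicate 3 the highest. Slc25a28, a mitoferrin that imports iron, was at 12.4, 9.94 and 12.0 FPKM. Slc25a39, which brings glutathione into mitochondria (chromosome 11, 102402985 to 102407946, minus strand), was at 172, 225 and 138 FPKM, while its relative Slc25a40 was at 1.03, 0.63 and 1.32 FPKM. Slc25a39 lay above Slc25a40 by 6.48 ± 0.61 in log2(FPKM + 1), or by 7.37 with 0.1 added instead of 1. However, the last exon listed for Slc25a39 reached at most 0.13 FPKM, so its value rests on first exons and internal events.

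First exons and an intron of Slc25a39 set replicate 2 apart as well. The first exon at 102407390 to 102407489 took 82.6, 36.4 and 79.0% of the first-exon FPKM. The most upstream one, at 102407778 to 102407946, was at 8.71, 120 and 15.5 FPKM, or 5.1, 53.2 and 11.3%. Another, at 102406555 to 102406816, took 11.5, 10.2 and 9.4%. Replicate 2 also had the largest share of a retained intron, which is shown with its first and last bases in capitals (annotated GRCm38 transcript, minus strand).
Slc25a39 retained intron, chr11:102403714-102403790: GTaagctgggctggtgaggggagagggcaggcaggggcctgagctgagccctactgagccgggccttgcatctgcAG
This intron of 77 bases was retained in 5.59, 34.7 and 7.11% of the FPKM of its retained and spliced forms. Its retained form was at 7.91, 28.4 and 7.72 FPKM and its spliced form at 134, 53.3 and 101 FPKM. The gene itself was at 172, 225 and 138 FPKM, so these forms covered least of it in replicate 2. The shares are of these forms and not of all the gene's transcripts. Of 6 erythroid markers 4 had a value, with summed levels of 242, 669 and 195 FPKM that were highest in replicate 2. Hba-a1 and Hbb-bt were not listed, and Alas2 was at 12.3, 10.7 and 9.99 FPKM. Red cell precursors are known for high levels of Slc25a38 and Slc25a39, and the part of such cells in these values was not tested. Slc25a38 was lowest in replicate 2. In bulk RNA, fewer cells of a type and less RNA per cell cannot be told apart.

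**Figure D2:**
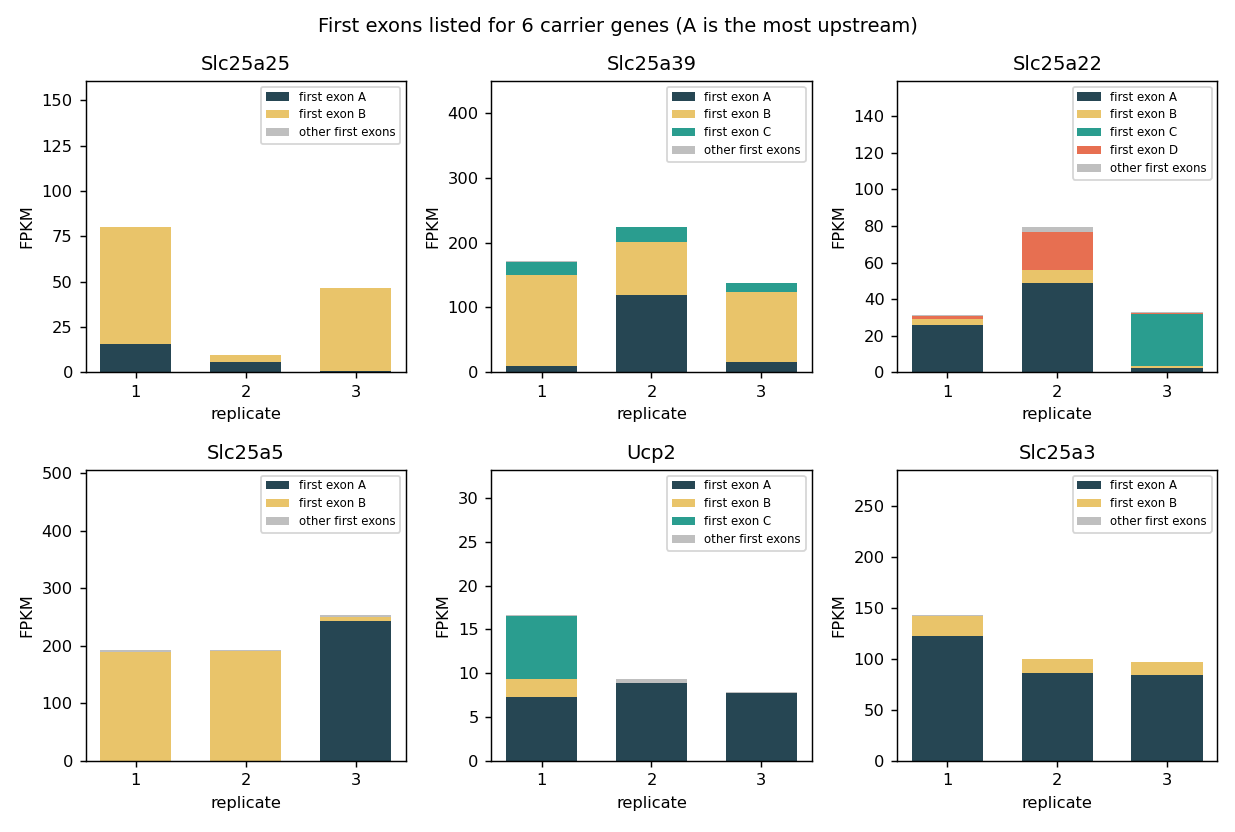
FPKM of the first exons of 6 carrier genes (vertical axis) in replicates 1, 2 and 3 (horizontal axis). Each colour is a first exon with a share of at least 10% in any library, lettered from the most upstream, and grey is the sum of the others. The lettered first exons of Slc25a3 share their start, and so do the lettered Slc25a22 exons that begin at 141435397. The leading first exon differed between libraries in Slc25a25, Slc25a39, Slc25a22 and Slc25a5, while Slc25a3 kept its division.

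Carriers of cofactors and nucleotides were of middling level and the summed group hardly moved, at 81.7, 82.8 and 83.0 FPKM. Slc25a42, which brings coenzyme A into the matrix, was at 21.2, 27.7 and 21.3 FPKM. Slc25a16 was at 18.2, 18.5 and 19.8 FPKM. Slc25a17, a peroxisomal carrier of cofactors, was at 14.0, 14.4 and 14.0 FPKM, and 99.0% of genes whose mean was 10 FPKM or more had a coefficient of variation at least as large as its 1.55%. Slc25a33, a carrier of pyrimidine nucleotides, was at 8.01, 10.3 and 9.11 FPKM, and its relative Slc25a36 was listed in replicate 3 alone, at 0.77 FPKM. Slc25a51, the NAD carrier, was at 12.7, 4.64 and 11.2 FPKM, with replicate 2 the lowest. Its value in replicate 1, and so the sum of the group there, includes 3.54 FPKM of an unannotated first exon. That exon lies 136 bases before the annotated gene and was listed in no other library. The annotated first exon was at 9.13, 4.64 and 11.2 FPKM. The S-adenosylmethionine carrier Slc25a26 was at 1.60 to 3.38 FPKM. Slc25a32, a folate and FAD carrier, was at 1.44 and 1.37 FPKM in replicates 2 and 3 and not listed in replicate 1.

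The uncoupling protein branch takes its name from brown fat, where Ucp1 lets protons back into the matrix to make heat. Ucp2 (chromosome 7, 100493337 to 100502020, plus strand) was at 16.6, 9.31 and 7.89 FPKM, with replicate 1 the highest. In replicate 1 a first exon of a noncoding transcript (100498141 to 100498272) took 43.4% of its first-exon FPKM, against 0.39 and 0.07% in the others. The first exon of the main protein-coding transcript was at 7.33, 8.88 and 7.79 FPKM, so its level was similar in all 3 libraries. Ucp2 is known in rodent liver mainly from its macrophages, the Kupffer cells. All 6 Kupffer cell markers had a mean above 10 FPKM, with summed levels of 96.0, 147 and 128 FPKM that were lowest in replicate 1, and their part in the Ucp2 values was not tested. Slc25a30 was at 3.71, 8.91 and 4.19 FPKM and Slc25a14 at 1.01, 1.24 and 1.15 FPKM. Slc25a27, known from brain, was listed in replicate 2 alone, at 0.36 FPKM.

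Slc25a47, a carrier known chiefly from hepatocytes, had the highest mean of the family by the level used here. In replicate 3 Slc25a5 was higher, at 253 FPKM. By last exons alone Slc25a5 was at 186, 189 and 250 FPKM and Slc25a47 at 169, 205 and 162 FPKM. Slc25a47 lies on chromosome 12 (108836046 to 108856815, plus strand). Its level was 291, 238 and 236 FPKM, a mean of 255 ± 31.5 (SD, n = 3). Practically all of its first-exon FPKM came from 1 exon (108851129 to 108851207), with shares of 100, 100 and 99.97%. Its neighbour on the opposite strand, Slc25a29, begins at 108835883 and was under 1 FPKM, as given above. Its family relatives Slc25a45 and Slc25a48 were at 7.44, 6.72 and 5.77 FPKM and at 3.46, 1.38 and 3.33 FPKM. Slc25a46, a carrier of the outer mitochondrial membrane, was at 6.41, 10.5 and 8.51 FPKM, and Slc25a35 was listed in replicate 2 alone, at 0.34 FPKM.

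Related carriers were compared in 14 pairs, of which 11 could be computed because both genes had a value. The first gene was higher in all 3 libraries in 10 of the 11. The pairs were chosen with earlier results of these data known, and some genes serve in more than 1 pair. This count therefore describes the list and tests nothing. The differences below are in log2(FPKM + 1). Besides the ADP/ATP, aspartate/glutamate and glutathione pairs, Slc25a47 lay above Slc25a48 by 6.15 ± 0.45 and above Slc25a45 by 5.06 ± 0.099, and Slc25a10 above Slc25a11 by 1.76 ± 0.18 (SD, n = 3). Slc25a25 lay above Slc25a24 by 4.85 ± 1.70, with 5.57, 2.91 and 6.07 in the 3 libraries, or by 6.64 with a pseudocount of 0.1, since Slc25a24 was not listed in replicate 3. Slc25a36 was not listed in 2 of the libraries, so the difference of Slc25a33 minus Slc25a36 depends on the pseudocount and was 3.06 with a pseudocount of 1 FPKM and 5.48 with 0.1. The difference of Slc25a30 minus Slc25a14 was 1.55 ± 0.52, or 2.10 with a pseudocount of 0.1. With that pseudocount Slc25a47 minus Slc25a45 was 5.24. Ucp2 minus Slc25a30 was 1.9, 0.056 and 0.77, so the genes were nearly level in replicate 2. Slc25a25 minus Slc25a23 was 0.85, −2.04 and 0.28, and its sign differed between libraries. With 3 libraries an exact two-sided sign-flip test cannot go below p = 0.25, so no difference was tested.

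**Figure D3:**
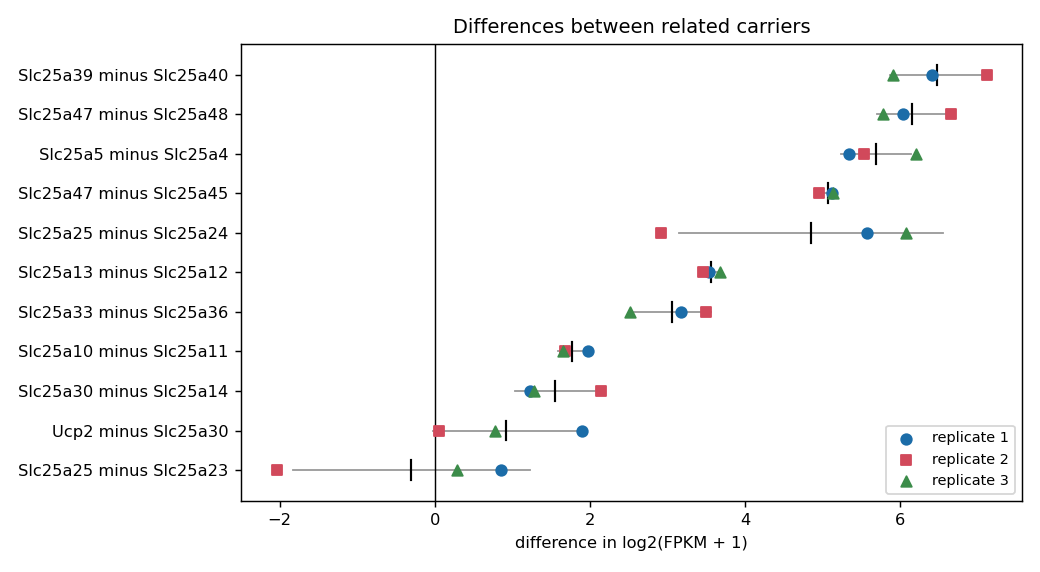
Differences between related carriers in log2(FPKM + 1) (horizontal axis), 1 row for each of 11 pairs. Points are the 3 libraries, black ticks the mean and grey lines 1 SD on each side. In 10 pairs every point lies to the right of 0, and Slc25a25 minus Slc25a23 lies on both sides of it.

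The signed deviations of the carriers went both ways in each library. The median deviation from the gene's own mean, over the 31 carriers whose mean was 1 FPKM or more, was 0.037, −0.025 and 0.012 log2 units in replicates 1, 2 and 3, against −0.0040, 0.012 and 0.010 over 8745 protein-coding genes. Among the 18 carriers whose mean was 10 FPKM or more, replicate 1 was highest in 8, replicate 2 in 5 and replicate 3 in 5, and they were lowest in 6, 7 and 5. Replicate 2 was the library farthest from the gene's mean in 17 of the 31 carriers, replicate 1 in 9 and replicate 3 in 5, against 29.6, 40.8 and 29.5% of the 8745 genes in that order. The median coefficient of variation of the 18 was 16.0%, and that of the 3026 protein-coding genes at this level 14.4%. Beside Slc25a25 and Slc25a22, Ucp2 stood out with 41.6%, which 6.11% of those genes reached.

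**Figure D4:**
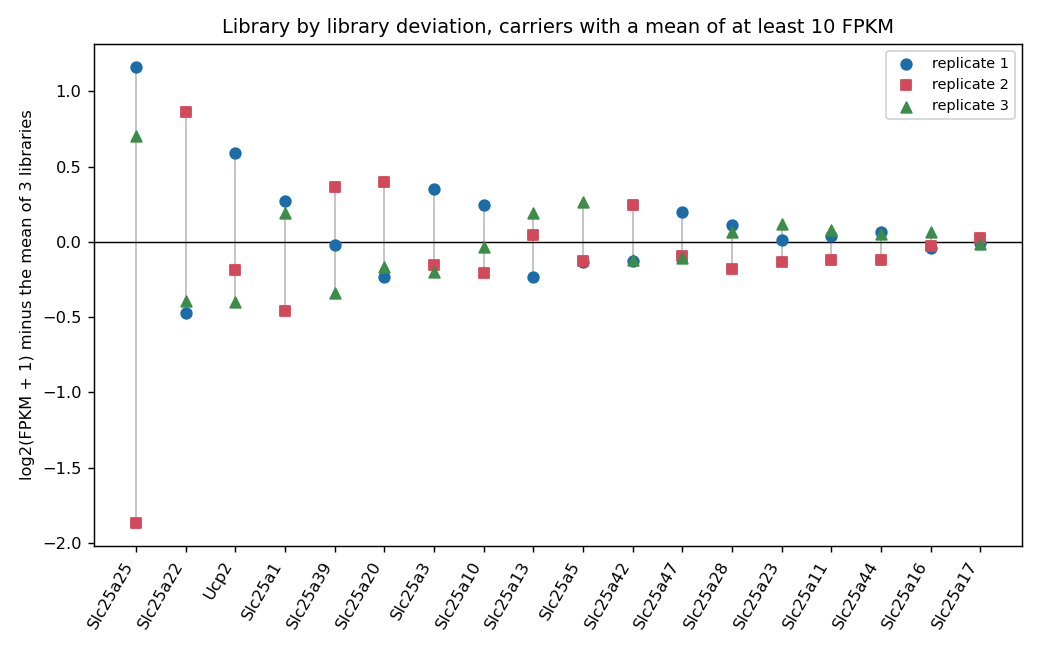
Deviation of each library from the mean of the 3 libraries, in log2(FPKM + 1) (vertical axis), for the 18 carriers whose mean was 10 FPKM or more, ordered by their range. Slc25a25 is lowest and Slc25a22 highest in replicate 2, Ucp2 is highest in replicate 1, and Slc25a17 at the right shows almost no spread.

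For the carriers 76 first exons were listed in 36 genes, of which 59 matched an annotated first exon exactly, 11 matched by splice site and 6 matched neither. In 29 genes the first exons summed to at least 1 FPKM in each library. At least 2 first exons with a share of at least 10% occurred in 12 of these in some library, against 34.6% of 6876 protein-coding genes measured in this way, and in 1, Slc25a3, in every library, against 8.46%. The leading first exon differed between libraries in 4 of the 29, namely Slc25a5, Slc25a22, Slc25a25 and Slc25a39, against 11.2%. With events outside the annotated gene left out, as they were for the other genes, the counts of carriers were 11, 1 and 3 of 29, near the shares of all genes. In Slc25a5 the annotated first exon took 98.0 and 99.5% in replicates 1 and 2 and 2.7% in replicate 3, where an unannotated first exon on chromosome X (36794770 to 36794882), 769 bases before the annotated gene, took 96.3% with 244 FPKM. Among last exons 23 genes could be measured, and 1, Slc25a28, had more than 1 form at a share of at least 10% in some library, against 8.55% of 6071 genes. More than 1 such form in every library was found in 0 of the 23, against 1.93%, and a leading last exon that differed between libraries in 0, against 1.48%.

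Retained introns and skipped exons could be measured at 26 places, 17 introns and 9 exons, in 16 carrier genes. Both forms lay between 10 and 90% in every library at 5 introns, in Slc25a28, Slc25a38 and Slc25a42, against 13.7% of 5244 such places in all protein-coding genes. An intron of 461 bases in Slc25a42 was retained at 84.6, 41.7 and 17.9% in replicates 1, 2 and 3, so each library had a different balance of the forms. An intron of 1086 bases in Slc25a28 was retained at 29.7, 33.2 and 17.8%. The introns of Slc25a38 are nested and share the same retained form, so their shares are not independent. An intron of 532 bases in Slc25a25 was retained at 12.3, 6.10 and 30.1%, highest in replicate 3. The intron of 1514 bases in Slc25a3, which contains the upstream exon of the pair shown above, was retained at 9.74, 13.0 and 8.11%. In Slc25a47 an intron of 310 bases was retained at 6.12% in replicate 1 and was listed as spliced alone in the others. A cassette exon of 128 bases in Slc25a44 was included at 100, 77.1 and 87.4%, and one of 64 bases in Slc25a16 at 85.0% in replicate 1 and 100% in the others. Since depth is unknown, such shares carry no counting error.

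**Figure D5:**
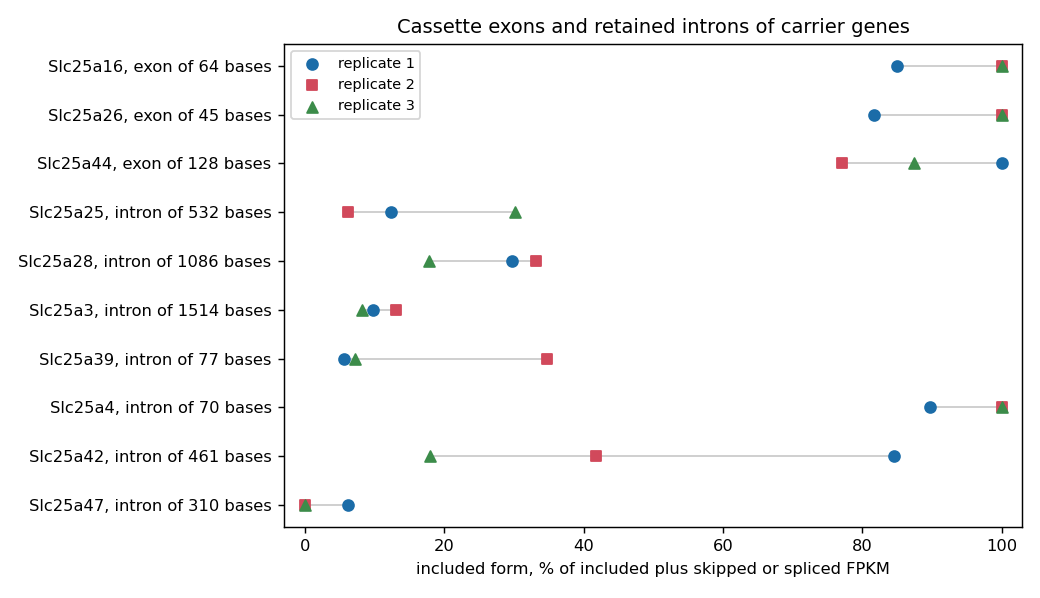
Share of the included form in the FPKM of the included plus skipped or spliced forms (horizontal axis, %), for cassette exons and introns of carrier genes whose share was at least 5% in some library and at most 95% in some library, without the nested introns of Slc25a38. Points are the 3 libraries. The intron of Slc25a42 runs from 17.9 to 84.6%, and the intron of 70 bases in Slc25a4 lies inside an annotated exon.

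Other genes of mitochondrial transport were read from a list of 55, of which 50 had a value, 47 reached a mean of 1 FPKM and 36 reached 10 FPKM. Of all protein-coding genes with a value 76.6% reached 1 FPKM and 26.5% reached 10 FPKM. The list was chosen by hand with earlier results of these data known. Among 14 other transport proteins 10 reached 1 FPKM, led by Mpc2, a subunit of the pyruvate carrier, at 183, 185 and 156 FPKM, and by the outer membrane channel Vdac1, at 75.3, 65.9 and 66.8 FPKM. Ucp1 and Ucp3, relatives of Ucp2 known from brown fat and muscle, were not listed. Of 13 genes for the import of carrier proteins 11 reached 1 FPKM, among them the intermembrane chaperones Timm10, at 13.4, 11.4 and 10.4 FPKM, and Timm13, at 37.5, 25.5 and 19.7 FPKM. Of 28 genes for enzymes and partners that make or use the carried substances 26 reached 1 FPKM and 24 reached 10 FPKM. Glud1, which releases ammonia from glutamate in the matrix, was at 241, 289 and 269 FPKM, a mean of 266 ± 24.1 (SD, n = 3), close to that of Slc25a47.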

How the data were processed

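RNA was sequenced from 3 normal mouse liver libraries, and each came as 1 table of transcript events. Per the file headers the deposited values are FPKM, and events at 0 are not listed. Tools named in the submitters' processing notes, with no role, are HISAT2 2.0.1, HTSeq 0.6.1, cutadapt 1.9.1 and DESeq2, and the build named is mm9. Which tool made the tables is not given there. Positions were read as GRCm38, because 82.0, 82.2 and 82.7% of first exons lay exactly on annotated first exons of GENCODE M21. Identical rows (1440 to 1519 per library) were removed, which left 71716 to 74243 events, 267 to 277 of them in carriers. Carrier events were taken by the gene identifier of the table, and events of other genes also had to lie inside the gene on its strand. The pseudocount was 1 FPKM. A share was computed where the forms summed to at least 1 FPKM in every library. There is 1 group, so no contrast or test was made. Values in every library are given for carriers with a mean of at least 10 FPKM, those with several forms above a 10% share in every library and those in a pair; the others are given by ranges or as examples. The members, lists and pairs were chosen with earlier results of these data known. Alternatives were another summary of the events, another pseudocount, other filters and leaving out each library; reading only events inside the annotated gene was chosen after seeing the data. Python 3.11.15, pandas 2.3.3, numpy 2.4.6 and Biopython 1.88 were used. A few items are not reported here.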

Additional observations from a re-analysis of the deposited data

How the results depend on the processing

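The median log2(FPKM + 1) of the carriers was 3.34 and became 3.20 with a pseudocount of 0.1, 3.63 over carriers above 0 in every library, and 3.33 to 3.67 with 1 library left out, the highest without replicate 2. The number of carriers with a mean of at least 1 FPKM was 31 and stayed between 24, with last exons alone, and 32. With last exons alone, 6 pairs instead of 10 had the first gene higher in every library, the difference of Slc25a39 minus Slc25a40 was −0.89, and the median deviations of replicates 1, 2 and 3 were 0.0012, 0.028 and −0.0054; last exons of several carriers, among them Slc25a39, are not listed or barely listed. Slc25a25 minus Slc25a23 was −0.88 to 0.57 with 1 library left out, the highest without replicate 2. The number of genes with alternative last exons was 0 to 1 with 1 library left out, with 0 without replicate 3. Of the other alternatives, 36 for the main results and 64 for single pairs left the value within its spread over libraries, or a count within 1.5 times. For single pairs 8 moved by more, with the same sign. No paired analysis was possible because there is 1 group. The unknown depth limits forms under 1 FPKM most, and a form at 0 is a form that was not listed.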

Other observations

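Events on exons of 2 carriers without a value were filed in the tables under a neighbouring gene and so fall outside the choice of members. The first exon of Slc25a37, a mitoferrin best known from red cell precursors (chromosome 14, 69284732 to 69285112, GRCm38), was listed at 12.0, 7.65 and 11.5 FPKM in replicates 1, 2 and 3 under the identifier of Gm16867. The other mitoferrin gene, Slc25a28, was at 12.4, 9.94 and 12.0 FPKM, and replicate 2 was the lowest for both. An internal exon of Slc25a37 (69249394 to 69249622) filed in the same way was at 2.85, 3.65 and 2.76 FPKM. This is the form with the adjoining intron spliced out. The form that retained that intron was at 9.19, 3.99 and 8.78 FPKM. The first exon of Slc25a34 (chromosome 4, 141623277 to 141623821) was listed at 3.63 and 2.10 FPKM in replicates 2 and 3, and not in replicate 1, under the identifier of Plekhm2. Under the same identifier, the form that retained the intron next to this exon was listed in replicate 1 alone, at 1.47 FPKM.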
